A study of Mus musculus with 18 samples.

Results

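The probes described here are those that kept the mouse embryonic stem cell line called Oct4 apart from the line ZHBTc4 in each of 3 culture conditions. A probe was taken when the mean of the 2 Oct4 arrays differed from the mean of the 2 ZHBTc4 arrays by at least 0.8 on the log2 scale, with 1 sign in each condition (LIF, then 48 h and 120 h after its removal). Of the 25030 probes in the deposited value table, 527 met the rule: 235 were higher in Oct4 and 292 were lower. These are 0.939% and 1.17% of the table, and because the members were chosen by these measured differences, the differences are given as a description, with no test.

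The 18 arrays cover 3 lines of strain 129/Ola, each in 3 conditions with 2 arrays per group. ZHBTc4 carries an Oct4 transgene that tetracycline can switch off, and its labels mention neither tetracycline nor puromycin. The Oct4 cultures without LIF are ZHBTc4 derivatives electroporated with a mouse Oct4 construct at random sites and grown in tetracycline and puromycin (2 µg/ml). The Oct4 cultures with LIF are labelled "Oct4 (4)", a knock-in derived from ZHBTc4, and for them neither drug is mentioned. Oct4 VP2 is a ZHBTc4 derivative electroporated with an Oct4-VP16 construct and grown in both drugs in every condition. RNA was taken 24 h after plating with LIF, or 48 h or 120 h after LIF had been removed from cultures plated in it, so LIF withdrawal and time in culture cannot be told apart. The flasks held 200000 cells of ZHBTc4 and of Oct4 and 250000 of Oct4 VP2. Arrays of a group came from independent clones, per the series description. Whether all Oct4 cultures were treated like the ZHBTc4 cultures is not settled by the labels, so line, drug and construct cannot be told apart in any difference below.

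Oct4, encoded by Pou5f1, is the POU-domain transcription factor that embryonic stem cells need to stay undifferentiated, and its dosage matters: too little gives trophectoderm and too much gives primitive endoderm and mesoderm. ZHBTc4 cells have both of their own Pou5f1 alleles inactivated and live on the tetracycline-responsive transgene. VP16 is a strong transcriptional activation domain from a herpesvirus, so an Oct4-VP16 fusion is used as an Oct4 protein with added activating power. LIF is the cytokine that sustains self-renewal of mouse embryonic stem cells through Stat3, and its removal lets them differentiate.

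Each array held a Cy3-labelled sample and a Cy5-labelled universal reference pooled from mouse cell lines. Levels below are log2(sample/reference), computed with normexp background correction and loess, and differences in the deposited table are given as such. Between 62.8% and 75.2% of the probes were well above background in Cy3 on an array. The array number, 2 per group, limits the precision. Replicate arrays correlated with r from 0.962 to 0.996 over probes, and the ZHBTc4 pair with LIF was the closest. The arrays were scanned in 2 sessions. The larger session, of 12 arrays, held Oct4 VP2 entirely, Oct4 after LIF removal, and ZHBTc4 replicate 1 at both later times. The other 6 arrays made up the smaller session. By their identifiers the arrays lay on 5 slides. With LIF both ZHBTc4 arrays were on slide 4 and both Oct4 arrays on slide 5, so slide and line cannot be told apart there. The files pair no probe with a gene, so members are given by probe identifier and sequence, the embryonic stem cell markers could not be checked, and the Oct4 transcript was not analysed here.

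The first 2 members in each direction, ranked by their smallest difference over the 3 conditions, are shown because their smallest difference is the greatest; other members differed more in single conditions. Capitals mark AATAAA, the usual polyadenylation signal near the 3′ end of a transcript, which both lower probes hold and neither higher probe does.

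Z00075563-1: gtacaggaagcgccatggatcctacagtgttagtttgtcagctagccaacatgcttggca

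Z00074470-1: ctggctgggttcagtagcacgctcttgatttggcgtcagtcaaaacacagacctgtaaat

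Z00004852-1: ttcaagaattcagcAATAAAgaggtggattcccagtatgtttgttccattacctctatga

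Z00024966-1: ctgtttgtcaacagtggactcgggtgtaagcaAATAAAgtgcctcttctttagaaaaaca

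Some members resemble each other, and 19 of them fall into 8 groups of similar sequence (at least 30 aligned bases at 85% identity or more, same strand). Groups 1, 4 and 5 are printed, chosen after their values were seen, because they hold the most probes or the most closely matching values. Capitals mark the longest run that all probes of a group share. The largest group has 5 probes, all lower in Oct4, with a shared run of 12 bases.

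group 1, probe A: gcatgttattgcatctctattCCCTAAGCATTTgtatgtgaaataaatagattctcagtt

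group 1, probe B: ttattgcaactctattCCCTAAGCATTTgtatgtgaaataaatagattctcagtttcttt

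group 1, probe C: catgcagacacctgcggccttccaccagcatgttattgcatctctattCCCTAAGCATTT

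group 1, probe D: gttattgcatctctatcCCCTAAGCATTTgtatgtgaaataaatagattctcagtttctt

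group 1, probe E: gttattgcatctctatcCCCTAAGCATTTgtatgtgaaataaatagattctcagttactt

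Groups 4 and 5 are pairs of probes that were higher in Oct4, with shared runs of 26 and 50 bases.

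group 4, probe A: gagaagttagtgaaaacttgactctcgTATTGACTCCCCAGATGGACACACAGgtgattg

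group 4, probe B: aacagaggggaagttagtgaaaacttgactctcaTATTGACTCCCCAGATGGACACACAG

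group 5, probe A: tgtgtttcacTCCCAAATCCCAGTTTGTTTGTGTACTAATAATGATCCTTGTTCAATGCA

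group 5, probe B: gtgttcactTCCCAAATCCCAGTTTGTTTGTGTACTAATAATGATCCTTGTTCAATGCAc

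In the deposited table, the members lower in Oct4 lay farther from ZHBTc4 than the higher ones. The median difference of the lower members was -2.00 with LIF, -1.35 at 48 h and -2.11 at 120 h. The median of the higher members was 1.31, 1.17 and 1.34. The separation reached 2 or more in every condition for 36 lower members and for 6 higher ones, and 3 or more for 4 lower members and 0 higher ones. At 48 h the gap was narrowest: 29 of the 292 lower members had their largest difference there, against 126 with LIF and 137 at 120 h. Among the higher members the counts were 50 at 48 h, 82 with LIF and 103 at 120 h. The last higher member inside the threshold differed by 1.13, 1.21 and 0.800086, and the first higher probe outside it by 0.96, 0.79992 and 1.63. For the lower members these values were -2.05, -0.800086 and -1.95 inside and -0.798259, -1.59 and -2.33 outside.

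**Figure D1:**
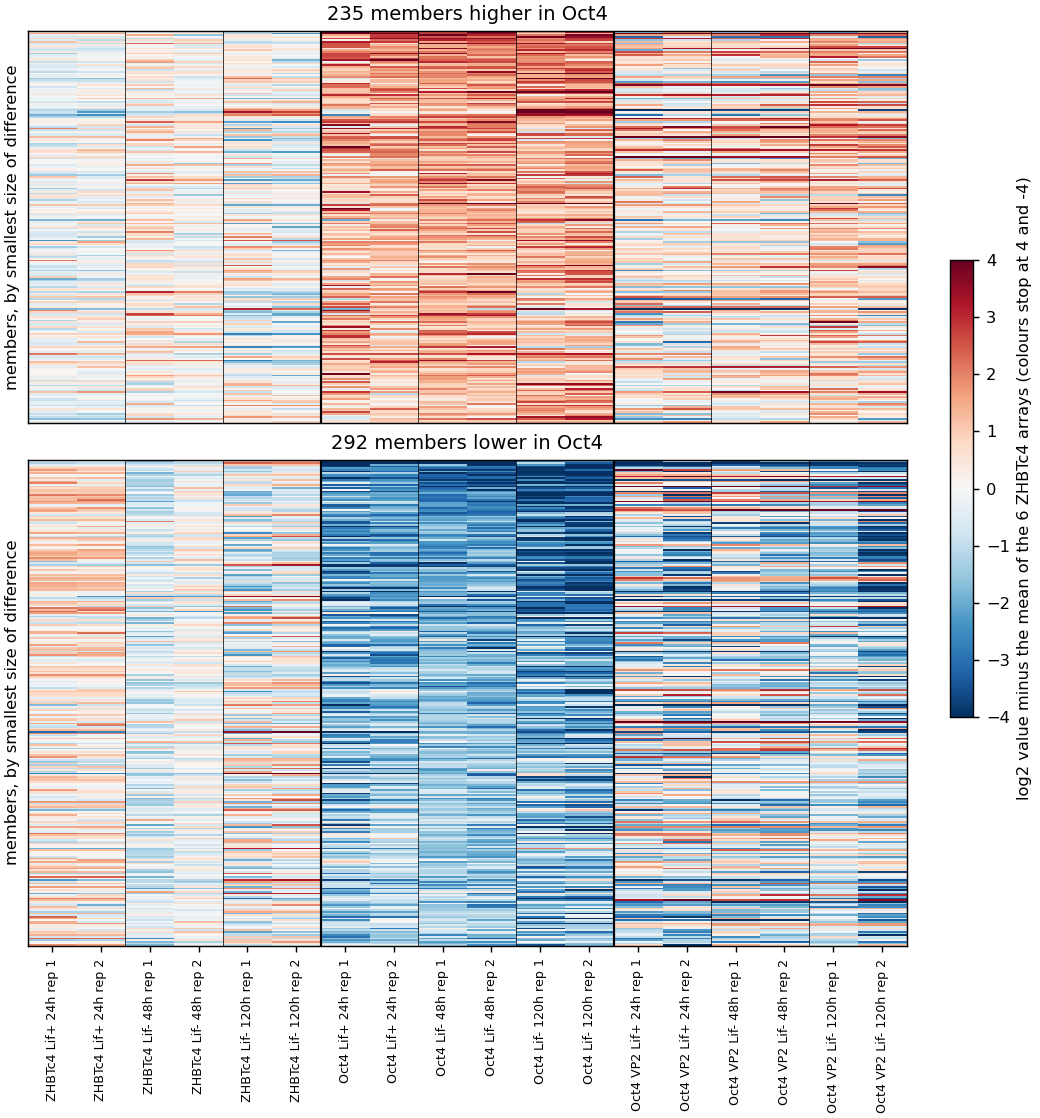
Log2 value of each member in the deposited table on every array, relative to the mean of the 6 ZHBTc4 arrays (colour scale, stopped at 4 and -4), with members in rows and arrays in columns by line, condition and replicate. The Oct4 columns are red for the 235 higher members and blue for the 292 lower members by the rule that chose them, and the Oct4 VP2 columns hold both colours within each set.

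The arrays of the pair of lines did not overlap in any condition for 179 of the 235 higher members and 256 of the 292 lower members. Over the whole table, non-overlap of this kind held for 5.13% of probes with Oct4 higher and 8.46% with Oct4 lower, and the rule had used the same values. All 6 Oct4 arrays lay beyond all 6 ZHBTc4 arrays, conditions mixed, for 65 higher and 90 lower members. This was not counted over the whole table, and the same values chose the members, so these counts are only a description.

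Many members were dim in the line where they were low. Both ZHBTc4 arrays were well above background in every condition for 86 of the 235 higher members, and no ZHBTc4 array was for 63. In Oct4 the same higher members were well above background throughout for 139 and on no array for 3. The lower members showed the opposite arrangement, with 216 of 292 measured well above background on all ZHBTc4 arrays and 126 on all Oct4 arrays. For 42 lower members no Oct4 array was well above background. A further view is that 36.6% of the higher members and 43.2% of the lower ones were well above background on all 12 arrays of both lines, against 59.9% of the table. On none of those 12 arrays were 2 higher and 10 lower members measured above background. No member was saturated in Cy3 on any array (0 higher and 0 lower).

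The size of the separation differed between the table and the values computed here. After normexp and loess the median difference of the higher members was 0.39 with LIF, 0.34 at 48 h and 0.40 at 120 h, and that of the lower members was -1.04, -0.66 and -0.75. The sign was kept in all 3 conditions by 219 higher and 280 lower members. The size of 0.8 was kept in all conditions by 31 higher and 86 lower members. Among members well above background on all arrays of both lines the values moved less: the higher ones had medians of 0.80, 0.81 and 1.10 after loess against 1.21, 1.09 and 1.37 in the table. The lower ones had -1.39, -0.91 and -1.23 against -1.86, -1.21 and -1.84. For Cy5, the common reference, the Oct4 minus ZHBTc4 medians of the higher members lay between -0.20 and -0.02 and those of the lower members between -0.30 and -0.09. Over the whole table they lay between -0.36 and -0.05.

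The scan session moved with part of the comparison, since both lines shared a session with LIF but only replicate 1 of ZHBTc4 shared the session of Oct4 afterwards. Against that ZHBTc4 array alone, the table's median for the lower members was -1.14 at 48 h and -1.92 at 120 h. Against the ZHBTc4 array of the other session it was -1.63 and -2.16. The higher members had 1.10 and 1.30 within the session and 1.33 and 1.53 across it. These arrays entered the rule, so the direction of the medians is a description. With the rule applied within the session, 151 of the 235 higher and 197 of the 292 lower members remained.

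Among the higher members, Z00075563-1 had the largest smallest difference, with 3.42, 3.36 and 2.72 in the table. Its log2 ratio in Oct4 was 4.07 and 2.55 with LIF, 1.97 and 3.67 at 48 h and, at 120 h, 1.09 and 2.66. In ZHBTc4 it was 0.04 and 0.12, then -0.52 and -0.07, then -0.89 and -0.23. The lines did not overlap in any condition, although the Oct4 arrays of a condition differed from each other by more than 1.5. Oct4 VP2 split by replicate: replicate 1 read -1.31, -1.35 and -1.78, below every ZHBTc4 array of its condition, and replicate 2 read 1.27, 1.09 and 0.51, above them. The Oct4 VP2 mean therefore stayed within 0.25 of ZHBTc4 in the table while neither of its arrays did.

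Z00074470-1 was the strongest higher member that Oct4 VP2 shared, and there it went further than in Oct4. Its log2 ratio in ZHBTc4 was -2.29 and -2.33 with LIF, -2.41 and -2.72 at 48 h and, at 120 h, -2.73 and -3.26, where neither array was well above background. In Oct4 it was -0.58 and -0.83, then -1.58 and -1.12, then -2.33 and -2.20. In Oct4 VP2 it was 0.22 and 0.54, then 0.01 and 0.15, then -1.03 and -0.90. The order ZHBTc4, Oct4, Oct4 VP2 held in every condition with no overlap between arrays. The table differences of Oct4 VP2 from ZHBTc4 were 3.80, 4.66 and 5.48. At 120 h Oct4 was at least 1.45-fold and Oct4 VP2 at least 4.21-fold above ZHBTc4 in Cy3. For such bounds the dim line was set, on each array, to the higher of its own signal and the lowest signal well above background, and dyes were not swapped. Without LIF the level fell in Oct4 VP2, by 1.34 ± 0.19 (SE, 2 arrays against 2) at 120 h (limma, adjusted p = 0.000441).

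The lower member with the widest steady gap, Z00004852-1, was bright in ZHBTc4 and Oct4 VP2 and low only on the Oct4 arrays. In ZHBTc4 it read 3.00 and 3.04 with LIF, 2.00 and 2.63 at 48 h and, at 120 h, 2.22 and 3.12. In Oct4 VP2 it read 3.05 and 3.15, then 3.42 and 3.26, then 2.97 and 2.89. In Oct4 it read -3.21 and -1.93, then -2.07 and -2.21, then -0.96 and -2.33. Every Oct4 array lay below 0 and every other array at 2.00 or above. The probe was well above background on all 18 arrays, and the table differences between Oct4 and ZHBTc4 were -5.49, -4.39 and -4.28. At 120 h its change was -0.16 ± 0.44 (SE) in Oct4 VP2 and 0.29 ± 0.31 in the mean of the other lines (limma, adjusted p = 0.827 and 0.464).

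Z00024966-1 was lower in both engineered lines. In ZHBTc4 it read 0.66 and 0.63 with LIF, -0.55 and 0.35 at 48 h and, at 120 h, 1.87 and 2.08. In Oct4 it read -2.25 and -1.82, then -2.12 and -2.15, neither above background, and then -0.96 and -0.79. ZHBTc4 was therefore at least 5.90-fold above Oct4 with LIF and at least 4.48-fold above it at 48 h in Cy3. In Oct4 VP2 it read -1.47 and 0.13, then -1.62 and -0.34, then -1.07 and -0.65, which overlapped ZHBTc4 at 48 h and Oct4 at 120 h and otherwise lay between them. The mean of Oct4 and ZHBTc4 rose by 1.25 ± 0.33 (SE) at 120 h (limma, adjusted p = 0.00612), a value that rests on Oct4 arrays below background with LIF.

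**Figure D2:**
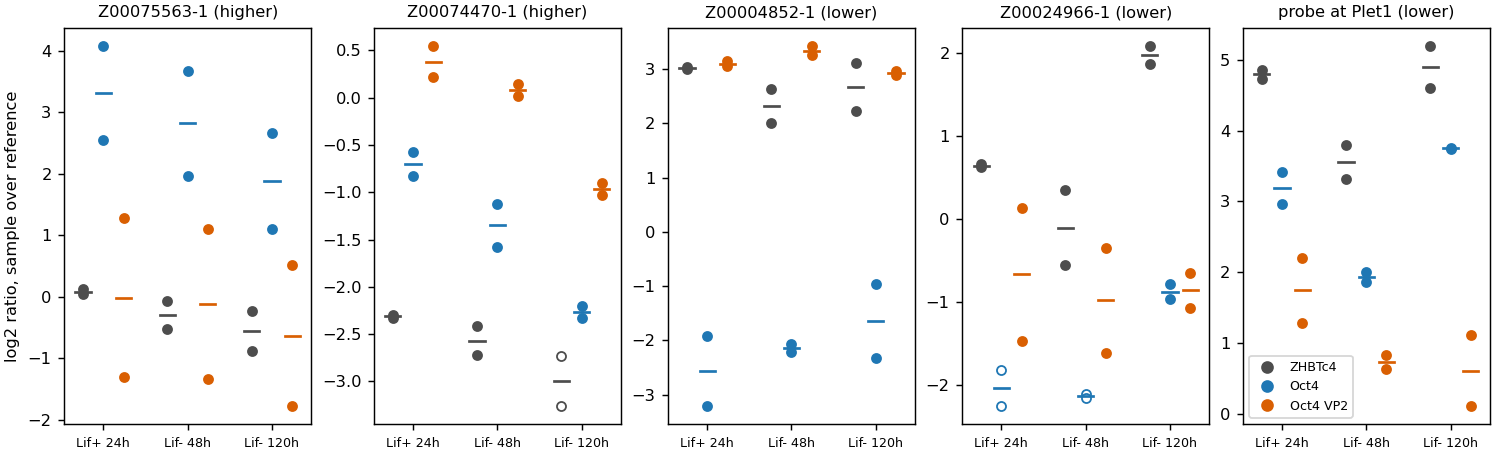
Log2 ratio of sample over reference (vertical axis) for the 4 named members and the probe at Plet1 on each array, by condition (horizontal axis) and line (colour). Points are arrays, bars are means of 2, and open points were not well above background. For Z00004852-1 all Oct4 points lie below 0 and all others at 2.00 or above.

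Sequence placed 2 members at a gene. Members and array probes were searched against RefSeq's windows around transcription start sites (GRCm38.p6, 300 bases each) and its miRNA hairpins, with exact matches of at least 25 bases; 211 of the 25030 table probes matched (0.843%). A lower member matched 54 of its 60 bases to chromosome 9, 50505002 to 50505055, plus strand. That stretch lies inside the span of Plet1 (50494525 to 50505639, plus strand) toward its 3′ end, and it is in the upstream window of the minus-strand gene Plet1os, whose transcript would read the other way. Plet1 encodes a surface protein of placental and early progenitor cells. Exon and UTR structure were not used here. The other match, also a lower member, covered 30 of 60 bases of the olfactory receptor gene Olfr803 (chromosome 10, 129691990 to 129692019, minus strand), and that probe was not well above background on any of the 18 arrays. Its table differences of -1.36, -0.93 and -0.89 therefore have no measured level behind them.

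The Plet1 probe was highest in ZHBTc4, lower in Oct4 and lowest in Oct4 VP2. In ZHBTc4 it read 4.85 and 4.74 with LIF, 3.32 and 3.80 at 48 h and, at 120 h, 4.60 and 5.19. In Oct4 it read 2.96 and 3.42, then 2.00 and 1.86, then 3.75 and 3.75. In Oct4 VP2 it read 1.29 and 2.21, then 0.63 and 0.84, then 1.11 and 0.11. The 3 lines did not overlap in any condition, and all 18 arrays were well above background. From LIF to 120 h the probe fell by 1.14 ± 0.33 (SE) in Oct4 VP2 (limma, adjusted p = 0.0256), while the mean of the other lines changed by 0.33 ± 0.24 (adjusted p = 0.256). In limma the fall was not called without replicate 2 of Oct4 VP2 with LIF (-0.68, adjusted p = 0.218), without replicate 2 at 120 h (-0.64, adjusted p = 0.231) or with slide as a random block (adjusted p = 0.0570). At 48 h the mean of Oct4 and ZHBTc4 fell by 1.25 ± 0.24 (limma, adjusted p = 0.00206). With scan session as a block in limma this was -0.85 (adjusted p = 0.107), and with median centring it was -0.84.

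Oct4 VP2 is compared with the same ZHBTc4 arrays as Oct4, so its differences are given side by side and were not tested against those of Oct4. It shared the direction at 0.8 or more in all 3 conditions for 38 of the 235 higher members (16.2%) and 77 of the 292 lower members (26.4%). Of all probes there, 2.43% were higher and 1.73% lower in Oct4 VP2 by that measure. It went the opposite way throughout for 7 higher and 20 lower members, and met neither pattern for 190 and 195. The median Oct4 VP2 minus ZHBTc4 difference of the higher members was 0.62 with LIF, 0.27 at 48 h and 0.86 at 120 h. For the lower members it was -0.92, -0.40 and -0.95. Error in the shared ZHBTc4 arrays enters both lines' differences, and its part in these medians was not tested. The quartiles spanned both signs: for the lower members they were -2.17 and 0.11 with LIF and -2.22 and 0.19 at 120 h.

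**Figure D3:**
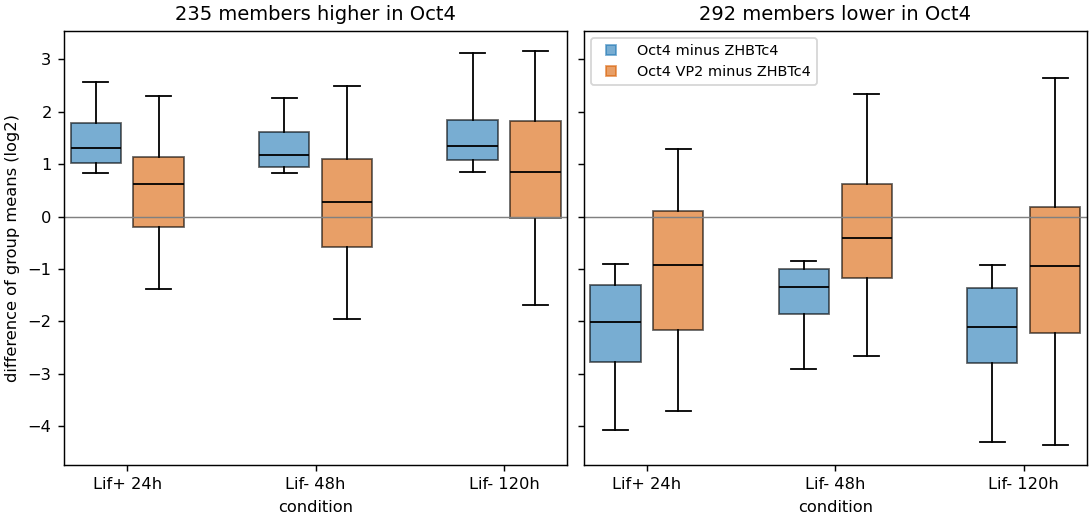
Difference of group means in the deposited table (log2, vertical axis) for Oct4 (blue) and Oct4 VP2 (orange) minus the same ZHBTc4 arrays, by condition, for the 235 higher and 292 lower members. Boxes show quartiles and medians and whiskers the 5th to 95th percentiles. By the rule no Oct4 value lies within 0.8 of 0, and the Oct4 VP2 medians lie nearer to 0 (0.27 to 0.86 for the higher and -0.95 to -0.40 for the lower members).

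In single conditions more members passed 0.8, and so did more of the table. With LIF, 95 higher members were at least 0.8 above ZHBTc4 in Oct4 VP2 and 29 at least 0.8 below, where 11.3% of all table probes were above and 9.09% below. At 48 h these counts were 75 and 46, where 11.3% were above and 9.75% below. At 120 h they were 121 and 28, where 15.1% were above and 13.3% below. Of the lower members 155 were below and 38 above with LIF, 111 and 66 at 48 h and, at 120 h, 160 and 57. The count on the Oct4 side was lowest at 48 h in both sets. Oct4 VP2 stayed within 0.8 of ZHBTc4 in all conditions for 28 higher and 22 lower members, as Z00004852-1 did not at 48 h, where it was 1.02 above. It stayed within 0.8 of Oct4 for 32 higher and 32 lower members. Of the 38 shared higher members, 15 lay beyond Oct4 in every condition, like Z00074470-1, and 5 lay short of it in every condition. Of the 77 shared lower members, 18 lay beyond and 16 short.

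The replicates of Oct4 VP2 differed in the lower set. Its median over the lower members, relative to the ZHBTc4 mean in the table, was -0.55 and -0.95 with LIF, -0.35 and -0.92 at 48 h and, at 120 h, -0.73 and -1.15 for replicates 1 and 2. Replicate 2 was the lower array each time. After loess the pairs were -0.28 and -0.29, then -0.15 and -0.42, then -0.42 and -0.47. The shared count of 77 lower members was 92 without replicate 1 of Oct4 VP2 at 48 h and 62 without replicate 2.

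The 8 groups of similar members, 2 of them higher and 6 lower, held no pair of opposite directions (0 mixed). On the array, 13 of the 235 higher members (5.53%) and 28 of the 292 lower members (9.59%) had a probe of similar sequence, against 5.50% of the table. A further 25 array probes resembled a member without being one, and 4 of these are in the value table. After loess, 20 of these 25 had their member's sign in all 3 conditions and 6 reached 0.8 in all. Probes that share sequence can bind the same transcript, so the probes of a group do not count as separate genes.

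The 5 probes of group 1 all read lower in Oct4 and in Oct4 VP2. Their table differences from ZHBTc4 ranged in Oct4 from -4.08 to -2.57 with LIF, from -1.37 to -1.12 at 48 h and from -3.25 to -0.99 at 120 h. In Oct4 VP2 they ranged from -2.14 to -1.80, from -1.87 to -1.04 and from -2.70 to -1.15. Probe C, which reaches farther upstream than the others, read 1.48 and 1.39 in ZHBTc4 with LIF, 1.31 and 1.81 at 48 h and, at 120 h, 2.68 and 3.49. It read -0.48 and -0.29 in Oct4 with LIF, 0.59 and 0.39 at 48 h and, at 120 h, 0.03 and -0.02. In Oct4 VP2 it read -0.11 and -0.15, then 0.24 and 0.10, then 0.59 and 0.24. All ZHBTc4 arrays lay above all others. Probe C rose by 1.02 ± 0.16 (SE) in the mean of Oct4 and ZHBTc4 at 120 h (limma, adjusted p = 0.000116), just past the 2-fold limit. Without replicate 2 of ZHBTc4 at 120 h the rise was 0.82, and without replicate 1 of Oct4 with LIF it was 0.98. The other 4 probes had changes of 0.46 to 0.68, under that limit. In ZHBTc4 the Cy3 signal of these probes rose more than the ratio did. From LIF to 120 h the mean log2 Cy3 signal of probe C went from 8.70 to 11.70, and its mean ratio from 1.43 to 3.09. For probe A the Cy3 signal went from 8.28 to 11.46 and the ratio from 1.25 to 2.21. The reason was not tested, so the size of these rises is uncertain.

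The group 4 pair, higher in Oct4, crossed over in Oct4 VP2. Relative to ZHBTc4 in the table, probe A in Oct4 VP2 went from -1.62 with LIF and -0.67 at 48 h to 2.21 at 120 h, and probe B from -1.66 and -0.77 to 2.27. The level of probe A in ZHBTc4 was 2.37 and 2.35 with LIF, 2.91 and 3.12 at 48 h and, at 120 h, -0.65 and -0.43. In Oct4 it was 3.33 and 2.98, then 4.20 and 4.62, then 0.49 and 0.33. In Oct4 VP2 it was 1.18 and 0.40, then 2.95 and 1.76, then 1.98 and 0.68. The level fell at 120 h on all arrays of Oct4 and ZHBTc4, by 2.82 ± 0.29 (SE) for probe A and 2.77 ± 0.29 for probe B (limma, adjusted p = 3.47e-06 and 3.69e-06). In Oct4 VP2 the 120 h change was 0.53 ± 0.41 and 0.47 ± 0.40 (limma, adjusted p = 0.382 and 0.439).

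The 2 probes of group 5 had close values. Their difference between Oct4 and ZHBTc4 went from 2.91 and 2.95 with LIF to 2.02 and 1.99 at 48 h and 1.23 and 1.15 at 120 h. Probe A read -4.36 and -4.32 in ZHBTc4 with LIF, -2.61 and -2.98 at 48 h and, at 120 h, -2.91 and -3.03. In Oct4 it read -2.11 and -1.59, then -0.84 and -0.92, then -1.75 and -1.85. The ZHBTc4 arrays with LIF were the lowest of all 18.

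**Figure D4:**
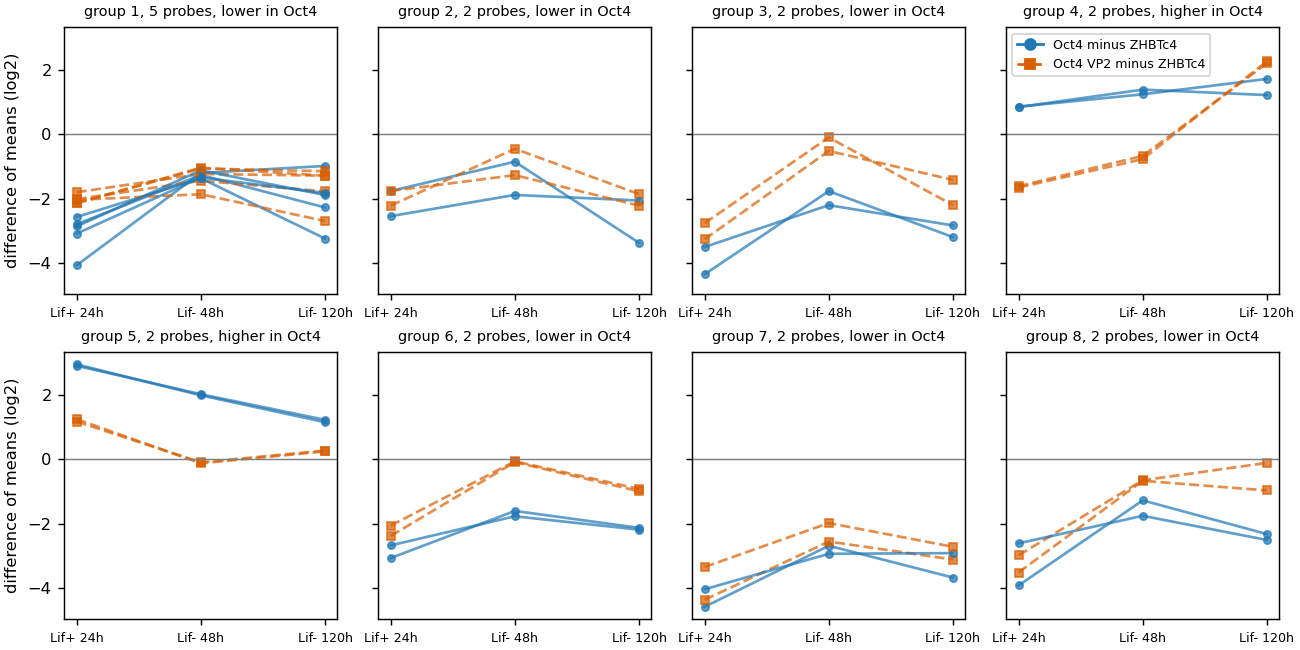
Difference of group means in the deposited table (log2, vertical axis) by condition for the 8 groups of members with similar sequence, for Oct4 (blue, solid) and Oct4 VP2 (orange, dashed) minus the same ZHBTc4 arrays; each line is a probe. The pairs of groups 4 and 5 lie close together, while in group 1 the Oct4 lines spread from -3.25 to -0.99 at 120 h. In group 4 Oct4 VP2 goes from -1.62 and -1.66 with LIF to 2.21 and 2.27 at 120 h.

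The response to LIF withdrawal in Oct4 VP2 uses no array of the rule. The mean change of Oct4 and ZHBTc4 is computed from the arrays that chose the members and is not independent of the choice where their noise is unequal. Its Oct4 part also sets the knock-in cultures, with no drug mentioned, against cultures of another construct in tetracycline and puromycin. The Oct4 arrays with LIF were all scanned in the smaller session and those without LIF all in the larger. In that part LIF withdrawal cannot be told apart from construct, drug and scan session. Over the members, the SD of the difference between replicates was 0.12 in ZHBTc4 with LIF and 0.44 in Oct4 with LIF, so counts for the mean are read as a description. A call needed an adjusted p under 0.05 over all 31727 probes tested and at least a 2-fold change. The filter on dim probes left 213 of the 235 higher and 276 of the 292 lower members, and 77.7% of the table. A member dim in every group had no test. With 2 arrays per group, p-values measure the spread between these arrays and clones.

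In Oct4 VP2 at 120 h, 9 lower members rose and 28 fell, where 2.81% of all probes rose and 1.83% fell. The falls were between 1.02 and 2.77 on the log2 scale. Among the higher members 14 rose and 6 fell, with rises of 1.04 to 2.54. Single Oct4 VP2 arrays moved this balance. The excess of rises in the higher set was lost without replicate 1 with LIF and nearly lost without replicate 1 at 120 h. It grew without replicate 2 at 120 h. Each of these fits left 1 array in a group. With all arrays the median change was 0.09 for the higher and -0.13 for the lower members, beside -0.02 for all probes. Without replicate 1 with LIF the median of the higher members was 0.06. With each array centred on its median in place of loess, which moved the median of all probes to -0.11, 6 higher members rose and 8 fell and 10 lower members rose and 33 fell. By that scaling 614 of all 31727 probes rose and 1117 fell, against 893 and 582 after loess. Under that scaling the loss of the excess of rises in the higher set thus went with a shift of all probes. Falls still outnumbered rises in the lower set.

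At 48 h few members were called in Oct4 VP2. Of the higher members 3 rose and 1 fell, and of the lower members 6 rose and 11 fell, where 0.946% of all probes rose and 0.851% fell. The medians were 0.03 and 0.05, beside -0.01 for all probes. Under median centring 7 lower members rose and 16 fell, and no call was left among the higher ones. By that scaling 233 of all 31727 probes rose and 293 fell. The lower set's balance depended on replicates. Without replicate 2 of Oct4 VP2 at 48 h, which left 1 array there, rises outnumbered falls in the lower set, with a median change of 0.07. Arrays of the same replicate number deviated together in Oct4 VP2 (r from 0.291 to 0.520 over probes, between its 3 conditions), though the labels do not say that the numbers pair arrays. The range was -0.226 to 0.221 in Oct4 and -0.037 to 0.703 in ZHBTc4. The 0.703 was between 48 h and 120 h, where the ZHBTc4 replicates were scanned in different sessions. With a replicate block within each line, added after seeing the data, 16 lower members rose and 14 fell.

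The mean of Oct4 and ZHBTc4 changed for more members than Oct4 VP2 did, and it rests on more arrays. At 120 h, 27 higher members rose and 15 fell, and 36 lower members rose and 62 fell, where 6.69% of all probes rose and 5.59% fell. The rises in the higher set reached 3.40 and the falls in the lower set 3.47. The medians were 0.02 and -0.20, beside 0.02. This balance changed with a session block and with scaling. Only ZHBTc4 at 48 h and 120 h had arrays in both sessions. The block therefore rests on the difference between its replicates and cannot tell session from replicate. With session as a block, 22 higher members rose and 14 fell, and the lower members turned to 49 rises and 29 falls with a median of -0.05. In that fit 2107 of all 31727 probes rose and 1450 fell, against 2122 and 1775 without the block. With median centring, which moved the median of all probes to 0.26, 44 higher members rose and 8 fell, and 52 lower members rose and 51 fell. By that scaling 5130 of all 31727 probes rose and 927 fell. In the processed scanner signals 45 higher members rose and 38 fell, and 56 lower members rose and 113 fell. There no filter on dim probes was used, and 2715 of all 25030 probes rose and 2250 fell.

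At 48 h, in the mean of Oct4 and ZHBTc4, 25 lower members fell and 1 rose, where 1.64% of all probes fell and 1.39% rose, and the median was -0.27. Of the higher members 10 rose and 0 fell by limma (26 fell at an unadjusted p under 0.05), with a median of 0.08. ZHBTc4 moved more than Oct4: its median over the lower members was -0.58 at 48 h and -0.37 at 120 h, and that of Oct4 was 0.01 and -0.07. With LIF, 162 of the 292 lower members were well above background on both Oct4 arrays and 247 on both ZHBTc4 arrays. A member near background in Oct4 has little room to fall, and the part of this in the medians was not tested. These line medians share arrays with the rule and are a description. Session moved with LIF withdrawal, since both ZHBTc4 arrays with LIF were scanned in the smaller session and only replicate 2 was at the later times. In Oct4 all arrays with LIF were in the smaller session and all later ones in the larger. The part of session in the result was not tested, since the block cannot tell it from the ZHBTc4 replicate. With session as a block 6 lower members rose and 11 fell, and 5 higher members rose and 0 fell. There 412 of all 31727 probes rose and 319 fell. Under median centring 9 lower members rose and 12 fell, where 1560 of all 31727 probes rose and 243 fell. In the processed signals 14 lower members rose and 54 fell, where 1025 of all 25030 probes rose and 682 fell. Falls in the lower set grew in number without replicate 2 of ZHBTc4 at 48 h. Rises in the higher set became fewer without replicate 1 of Oct4 with LIF. Each of these fits left 1 array in a group. Members called at 120 h the same way in Oct4 VP2 and in the mean of the other lines numbered 9 higher (4.23% of those tested) and 18 lower (6.52%), where 2.19% of all probes were.

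The change in Oct4 VP2 was then set against the mean change of Oct4 and ZHBTc4, a comparison added after seeing the data. Larger and smaller are meant with sign here, not as size. The group 4 pair, which fell in the mean and was not called in Oct4 VP2 at 120 h, counts as larger. At 120 h the change was larger in Oct4 VP2 for 14 higher members and smaller for 14, where 5.04% of all probes were larger and 4.48% smaller. Among the lower members it was larger for 33 and smaller for 41. With session as a block these became 15 and 48, where 1457 of all 31727 probes were larger and 1633 smaller. With median centring, which moved the median of all probes to -0.44, they became 22 and 58. By that scaling 735 of all probes were larger and 7012 smaller, so the members' counts went with a shift of all probes. At 48 h it was larger for 20 lower members and smaller for 5, where 1.55% of all probes were larger and 0.845% smaller, and 2 higher members went each way. The 48 h calls in the lower set depended on single arrays of ZHBTc4 and of Oct4 VP2 at 48 h. Leaving 1 out left its group with 1 array, so only sizes are given. The median difference of the lower members at 48 h was 0.28. It was 0.30 without replicate 2 and 0.23 without replicate 1 of Oct4 VP2 at 48 h. Without that replicate 1 the calls over all probes fell too. Calls of a smaller change among the higher members at 120 h grew without replicate 1 of Oct4 VP2 at 120 h. At 48 h, with session as a block, 11 lower members were larger and 9 smaller, where all 31727 probes had 277 and 246. With median centring the counts were 11 and 13, where all probes had 197 and 1523.

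**Figure D5:**
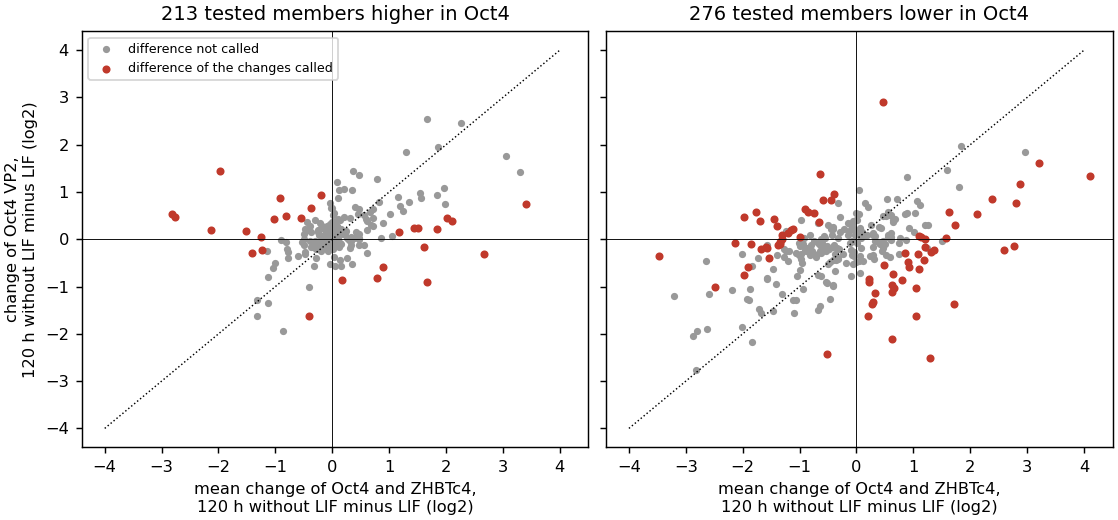
Change from LIF to 120 h without LIF (log2) in Oct4 VP2 (vertical axis) against the mean of Oct4 and ZHBTc4 (horizontal axis) for the 213 higher and 276 lower members tested. Each point is a probe, red points are those whose difference between the changes was called, and the dotted line marks equal change. The group 4 pair lies at the left edge of the left panel, at -2.82 and 0.53 for probe A.

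The members shared little in composition. The median GC content of the 60-base probes was 43.3% in the higher set, in the lower set and in the table. AATAAA on the probe strand was held by 36 of the 292 lower members (12.3%) and 17 of the 235 higher members (7.23%), against 7.90% of all table probes. On the opposite strand, read as TTTATT, it was held by 3.77%, 3.40% and 3.62%. Of these 36 members 7 belong to the groups of similar sequence, and 29 lie outside them (10.5% of the lower members there).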

How the data were processed

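The 18 arrays were analysed, 2 for each of 9 groups taken from the sample labels. Per the file headers, the deposited scanner intensity values were made with Agilent Feature Extraction 9.5.1.1, which gives each spot's mean signal, local background and processed signal in Cy3 and Cy5. The authors' deposited value table is on a log10 scale and holds 25030 of the 42006 probes. After centring over the arrays it matches log10(sample/reference) from the processed scanner signals within 0.001 for 100% of values, but each probe's offset is unknown (column medians 2.33 to 2.36). Deposited values were multiplied to log2 for the rule. Levels and tests came from the mean signals with limma 3.58.1 in R 4.3.3: normexp (offset 50), loess within arrays, spots of a probe averaged, 1 model over 9 groups, and Benjamini-Hochberg adjustment over the 31727 probes well above background on both arrays of at least 1 group. Calls needed an adjusted p under 0.05 and 2-fold. The code was tested on simulated data. Probes were compared with blastn 2.17.0. Named probes are the first 2 in each direction by smallest difference, and others were picked after their values were seen. The members and lists were chosen with earlier results of these data known. Gene lists and cell type markers could not be applied, since probes carry no gene names. Alternatives were other thresholds, background corrections and scalings, session or slide as a block, and leaving out each array.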

Additional observations from a re-analysis of the deposited data

Results flagged for a closer look

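The response to LIF withdrawal differed between Oct4 VP2 and the mean of Oct4 and ZHBTc4 for 102 tested members at 120 h and for 29 at 48 h (limma interaction contrast, adjusted p under 0.05 and 2-fold). The comparison was added after seeing the data, and its Oct4 and ZHBTc4 arrays also chose the members. The labels give Oct4 another construct and no drug with LIF, and its arrays with LIF were scanned in another session. LIF, construct, drug and session therefore cannot be told apart in its Oct4 part. The group 4 pair differed by 3.36 ± 0.50 (SE) for probe A and 3.24 ± 0.50 for probe B at 120 h (limma, adjusted p = 0.000423 and 0.000492), and both calls held under all 27 alternatives run. The probe at Plet1 differed by -1.47 ± 0.41 (SE) at 120 h (limma, adjusted p = 0.0164). Its call was lost in limma without replicate 2 of Oct4 VP2 with LIF (-1.01, adjusted p = 0.0930) and without replicate 2 of Oct4 VP2 at 120 h (-0.97, adjusted p = 0.0955).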

How the results depend on the processing

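With a threshold of 0.6 the rule gave 891 members (215 shared with Oct4 VP2), with 1.0 it gave 298 (70 shared), and on normexp and loess values 135 (27 shared), against 527 and 115. With ZHBTc4 of the shared session alone 71 were shared, and with ZHBTc4 of the other session 173, both chosen after seeing the data. With the processed scanner signals the calls were 107 against 57 (Oct4 VP2, 120 h), 252 against 140 (mean of Oct4 and ZHBTc4, 120 h) and 107 against 36 (mean, 48 h). That setting had no filter on dim probes and tested all 527 members. Calls over all probes grew too. In Oct4 VP2 at 120 h, 1333 of 25030 rose and 874 fell, against 893 and 582 of 31727. In the mean at 120 h, 2715 rose and 2250 fell, against 2122 and 1775. With an offset of 16 the members' calls were 35 against 21 (Oct4 VP2, 48 h) and 59 against 36 (mean, 48 h). With session as a block the mean at 48 h had 22. The labels do not say that replicate numbers pair arrays. The replicate block gave 58 and 22 calls in Oct4 VP2 and 140 and 36 in the mean at 120 h and 48 h. A replicate block within each line, added after seeing the data, gave 34 for Oct4 VP2 at 48 h and 58 against 29 for the difference of changes at 48 h. Crossing the numbers of Oct4 with LIF in that block gave 36 and 60. Leaving out 1 array gave 417 to 606 members, 81 to 146 shared, 47 to 68 and 17 to 25 calls in Oct4 VP2, 131 to 143 and 27 to 48 in the mean, and 91 to 104 and 18 to 49 in the difference, at 120 h and 48 h. The low of 18 came without Oct4 VP2 at 48 h replicate 1 and the high of 49 without ZHBTc4 at 48 h replicate 2. The cause of these shifts was not tested. A lone array was taken to vary like the other groups. Of these summaries, 46 stayed within 1.5 times and 18 moved beyond. Dim signal limits most fold sizes: 36.6% of higher and 43.2% of lower members were well above background on all arrays of both lines.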
